A study of Mus musculus with 18 samples.

Results

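The comparison covered the embryonic mouse brain. Embryonic days 11 and 12 (E11, E12) formed the early side and days 13 and 14 (E13, E14) the late side. The sides were chosen to stand for progenitor expansion and the onset of neurogenesis. Neuronal genes such as Tubb3 and Tbr1 were already expressed at E11, with values given below. Genes were taken where RPKM, read number scaled to exon length and library size, averaged 1 or more over these 4 libraries, which gave 12692 of the 32941 genes in the table. The last gene inside this limit was Rorb with a mean of 1.00 RPKM, and the first outside was Arsg with 0.99987 RPKM. The libraries were 4 of the 18 of the series, which otherwise held later stages, primary neural stem cells with and without Pex7 knockdown, and brain samples with and without PLAAT3-PEX11 overexpression. All 4 were wild-type, and their tissue was labelled brain, while the design text of the series names cortex and triplicates. The files held 1 library per stage, with no statement on pooling of embryos, strain or sex. The labels give no manipulation for either side and no difference between them other than stage. A comparison of 2 stages against 2 therefore measured its spread between neighbouring stages, not between replicate embryos of a stage.

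Neuroepithelial cells of the early dorsal forebrain divide symmetrically at the ventricular surface and enlarge the progenitor pool. As neurogenesis sets in, they take on the character of radial glia, lengthen their cell cycle, and give rise to intermediate progenitors and to the first projection neurons, those of the deep layers. Transcription factors of the basic helix-loop-helix class, among them Neurog2, Neurod2 and Neurod6, mark successive steps of this course, and genes such as Hmga2 and Lin28b mark young progenitors.

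The libraries held 41501879 to 53270599 reads, as recovered from the RPKM values. Markers of the telencephalon were high and markers of posterior brain were low: Emx1, a transcription factor of the dorsal telencephalon, stood at 36.2 RPKM at E11, 41.7 at E12, 44.5 at E13 and 66.8 at E14. None of 30 Hox genes reached the limit of 1 RPKM, and the highest Hox value in any stage was 0.143 RPKM. Of 26 midbrain and hindbrain factors, 4 were tested, and Atoh1 was at 0 in all 4 libraries. The markers were thus those of forebrain, narrower than the label. The E11 library stood apart from the other 3. Its log2 values correlated with those of E12 at a Pearson r of 0.961 across genes, against 0.981 for E12 with E13 and 0.987 for E13 with E14. At least 2-fold differences on the log2(RPKM + 1) scale numbered 484 genes from E11 to E12, 164 from E12 to E13 and 86 from E13 to E14. The difference from E11 to E12 also followed exon length across genes (Spearman's rho 0.327, 12647 genes), that from E12 to E13 at -0.129, and that between the 2 sides at 0.03. The difference between the 2 sides followed the GC content of the longest transcript, with a rho of 0.246. With both trends removed, limma again called 0 genes in either direction, with 852 higher and 969 lower at an unadjusted p under 0.05. Values are given for all stages, and medians and the larger differences also with E12 alone as the early side.

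No gene passed the test across all genes. limma on log2(RPKM + 1) called 0 genes higher and 0 lower in E13-E14 at a Benjamini-Hochberg adjusted p under 0.05, and the smallest adjusted p was 0.108. At an unadjusted p under 0.05 there were 864 higher (6.81% of those tested) and 844 lower genes (6.65%). limma-voom on the recovered reads also called 0 genes in either direction, with 933 higher and 871 lower at an unadjusted p under 0.05. An exact permutation test of 2 against 2 libraries cannot go below a p of 0.333. With E11 left out, limma called 202 genes higher (1.59% of those tested) and 123 lower (0.969%). In that fit the spread came from E13 and E14 alone, and E12 was assumed to vary as they did. Without E12 the calls were 2110 higher (16.6%) and 1931 lower (15.2%). Without E13 they were 4 higher (0.0315%) and 0 lower, and without E14 1 higher (0.00788%) and 0 lower. The number of calls thus rested on which library was left out, and the differences below are given as measured values. They are log2(RPKM + 1) in E13-E14 minus that in E11-E12, with the SE of the limma fit, and no member named here passed the test with all 4 libraries. Adjusted p-values of the 24 genes with the largest differences were 0.326 to 0.378.

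Ranges that did not overlap served as the second description. Both E13-E14 libraries were above both E11-E12 libraries in 2923 genes (23% of those tested) and below both in 3483 (27.4%). At least a 2-fold difference without overlap was measured for 256 higher genes (2.02%) and 70 lower genes (0.552%). Of the 256 higher genes, 163 had their largest step between E11 and E12, 86 between E12 and E13, and 7 between E13 and E14. Of the 70 lower genes, 27 had their largest step first, 40 between E12 and E13, and 3 last. So the lower genes had their largest step most often across the boundary between the 2 sides, and the higher genes most often before it.

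**Figure D1:**
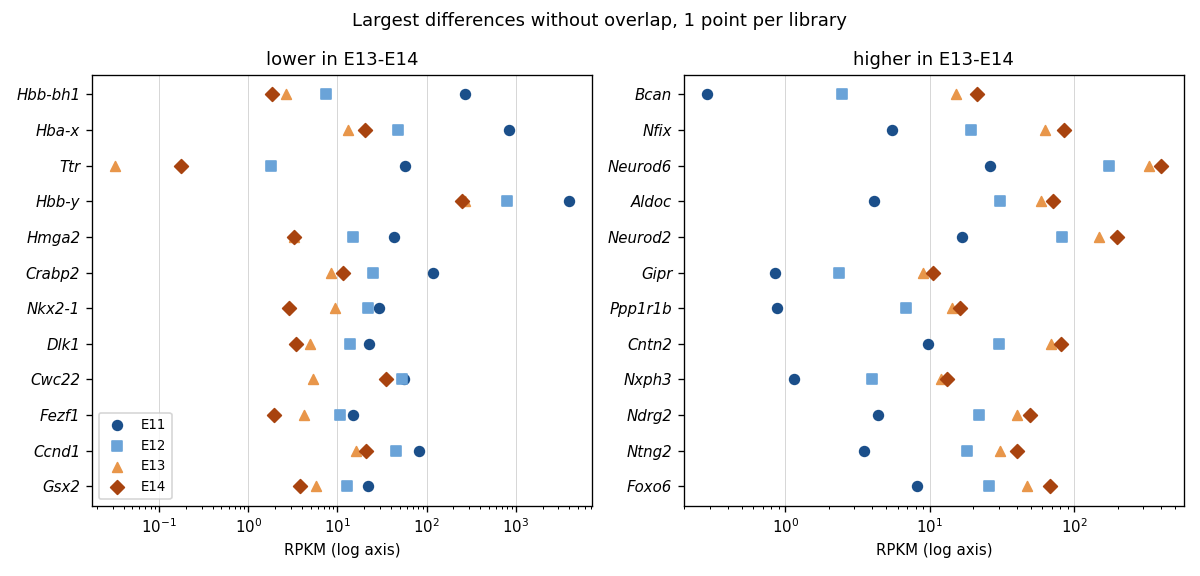
RPKM (log axis) of the 12 genes with the largest lower and the 12 with the largest higher difference among well expressed genes without overlap, with 1 point per library and stages by colour and marker. In the right panel the E11 points lie apart to the left, as for Neurod6 at 26.1 RPKM against 175 at E12, and in the left panel Hmga2 goes from 43.5 at E11 to 3.23 at E14.

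Among the 12 named genes in each direction, the higher ones included neuronal and glial genes and the lower ones early progenitor, ventral and globin genes. The largest higher difference belonged to Bcan, which encodes the brain proteoglycan brevican, at 0.287, 2.48, 15.2 and 21.3 RPKM from E11 to E14. Each stage was above the one before, and the difference was 3.16 ± 0.47 (SE), or 2.45 without E11. Nfix, a nuclear factor I transcription factor, stood at 5.50, 19.3, 63.1 and 85.3 RPKM, a difference with an SE of 0.53 that was 1.87 without E11. Cntn2, a neuronal adhesion molecule of axons, stood at 9.67, 30.4, 68.9 and 81.0 RPKM. The remaining 9 named higher genes were Neurod6, Aldoc, Neurod2, Gipr, Ppp1r1b, Nxph3, Ndrg2, Ntng2 and Foxo6, with differences of 1.88 to 2.40. All 12 named higher genes were chosen without overlap, which fixes their direction without E11, so that fit gives them no separate support.

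On the lower side, Hmga2, an architectural chromatin protein of young stem cells, stood at 43.5, 14.8, 3.21 and 3.23 RPKM, a difference of -2.65 ± 0.47, or -1.90 without E11. The level was already lower at E12, and E13 and E14 were alike. Crabp2, a cellular retinoic acid binding protein, stood at 117, 24.8, 8.38 and 11.4 RPKM, a difference of -2.35 ± 0.68, or -1.26 without E11. Dlk1, an imprinted membrane protein related to Notch ligands, stood at 22.5, 13.8, 4.86 and 3.43 RPKM, and Fezf1, a forebrain zinc finger factor, at 15.1, 10.8, 4.20 and 1.94 RPKM. Ccnd1, which encodes cyclin D1, stood at 82.9, 45.4, 16.1 and 21.1 RPKM. The other named lower genes were Nkx2-1 and Gsx2, the choroid plexus and liver gene Ttr, the globins Hbb-bh1, Hba-x and Hbb-y, and Cwc22. All 12 named lower genes were likewise chosen without overlap, which fixes their direction without E11. That fit gives them no separate support either. Cwc22 stood at 55.8, 52.7, 5.32 and 35.3 RPKM, so E13 and not a common level of E13 and E14 set its difference.

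Proliferation genes were lower in E13-E14 nearly as a whole. Of 33 DNA replication genes tested, 31 were below both early libraries and 1 above, against 27.4% and 23% of all genes, with a median difference of -0.67 against -0.03 over all genes. Of 29 mitosis genes, 29 were below, with a median of -0.69. With E12 alone as the early side the medians were -0.41 and -0.52. In bulk tissue, fewer dividing cells and less RNA per dividing cell cannot be told apart.

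Rrm2, the small subunit of ribonucleotide reductase that supplies deoxynucleotides, stood at 95.2, 70.7, 40.5 and 37.5 RPKM, a difference of -1.06 ± 0.20, or -0.84 without E11. Uhrf1, which recruits the maintenance methyltransferase to replicated DNA, stood at 70.8, 55.5, 32.1 and 34.5 RPKM. Mcm6, a subunit of the replicative helicase, stood at 62.7, 36.7, 25.7 and 25.7 RPKM. In these genes the late libraries were close to each other, and E12 lay between E11 and them. The exceptions to the direction were Gins2, a helicase cofactor, with 47.6, 42.6, 49.4 and 57.2 RPKM, and Orc6, a subunit of the origin recognition complex, whose ranges overlapped at 41.8, 27.5, 25.0 and 28.5 RPKM.

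Among mitosis genes the kinetochore kinase Bub1 stood at 19.5, 13.5, 8.48 and 7.18 RPKM, a difference of -0.97 ± 0.21, or -0.72 without E11. Top2a, the topoisomerase that untangles sister chromatids, stood at 60.0, 46.7, 29.4 and 27.1 RPKM, and the B-type cyclin Ccnb2 at 80.7, 52.6, 36.7 and 34.2 RPKM. The narrowest difference of the 29 was -0.37, in Cit, the citron kinase of cytokinesis. At E16 and E18 Top2a stood at 13.8 and 2.76 RPKM, so the direction went on.

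Promoters of these genes are shown because their windows hold short motifs known from cell cycle genes. The lists were chosen by function, so the motif shares below describe the lists. A link between the motifs and the stage difference was not tested. The windows run from 250 bases before to 50 bases after the RefSeq start (GRCm38.p6), and both strands were searched. An E2F motif, TTTNNCGC, occurred in 15 of 27 replication promoters (55.6%) and in 10.3% of the 9499 promoters of all genes tested with an entry. The cell cycle homology region TTTGAA occurred in 18 of 25 mitosis promoters (72%) and in 13.7% of all. CCAAT occurred in 76% of the mitosis, 66.7% of the replication and 43.6% of all promoters. Printed are 4 promoters with a match, 2 from each list, chosen among the genes described above: Uhrf1 at chr17:56303087-56303386 (+ strand), Mcm6 at chr1:128359656-128359955 (- strand), Top2a at chr11:99024140-99024439 (- strand) and Ccnb2 at chr9:70421505-70421804 (- strand). Capitals mark the matches, and a match describes letters, not binding.
Uhrf1: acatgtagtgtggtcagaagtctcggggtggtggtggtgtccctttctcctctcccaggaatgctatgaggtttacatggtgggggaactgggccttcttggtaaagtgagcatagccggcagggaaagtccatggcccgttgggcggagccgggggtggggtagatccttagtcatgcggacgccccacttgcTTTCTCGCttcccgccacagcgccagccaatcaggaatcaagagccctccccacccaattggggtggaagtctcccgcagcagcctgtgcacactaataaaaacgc
Mcm6: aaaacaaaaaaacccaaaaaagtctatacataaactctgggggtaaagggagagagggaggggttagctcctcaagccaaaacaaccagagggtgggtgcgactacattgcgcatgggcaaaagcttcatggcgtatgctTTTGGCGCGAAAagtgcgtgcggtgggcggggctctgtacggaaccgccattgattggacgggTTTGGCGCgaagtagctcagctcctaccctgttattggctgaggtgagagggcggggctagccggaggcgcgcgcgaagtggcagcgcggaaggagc
Top2a: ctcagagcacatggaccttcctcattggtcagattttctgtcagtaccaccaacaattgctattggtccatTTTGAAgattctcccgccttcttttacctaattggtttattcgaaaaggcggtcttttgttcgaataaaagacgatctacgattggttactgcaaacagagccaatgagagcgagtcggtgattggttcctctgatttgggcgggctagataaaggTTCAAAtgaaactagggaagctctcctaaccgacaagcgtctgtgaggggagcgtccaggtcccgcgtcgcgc
Ccnb2: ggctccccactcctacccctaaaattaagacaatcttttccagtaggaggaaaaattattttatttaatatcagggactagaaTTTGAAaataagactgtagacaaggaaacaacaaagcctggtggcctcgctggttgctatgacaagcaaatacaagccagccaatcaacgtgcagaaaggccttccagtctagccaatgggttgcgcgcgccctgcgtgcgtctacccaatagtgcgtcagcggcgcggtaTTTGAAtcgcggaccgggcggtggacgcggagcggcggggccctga

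Regulators of the G1 phase were lower in 13 of 25 tested (52%, against 27.4% of all genes) and higher in 5 (20%, against 23%), with a median of -0.17, and -0.18 without E11. Ccnd1 (cyclin D1) had the largest difference at -1.68 ± 0.31, or -1.25 without E11, while its relative Ccnd2 stood at 57.3, 74.3, 49.9 and 50.3 RPKM. E2f2, an activating E2F factor, stood at 6.91, 5.45, 2.91 and 3.10 RPKM. The inhibitors that accompany cell-cycle exit differed little: Cdkn1b (p27) stood at 22.5, 27.0, 27.6 and 30.8 RPKM and Cdkn1c (p57) at 55.3, 47.6, 49.6 and 58.7 RPKM. Cend1, a neuronal factor of cell-cycle exit, stood at 15.2, 22.1, 24.7 and 26.1 RPKM.

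**Figure D2:**
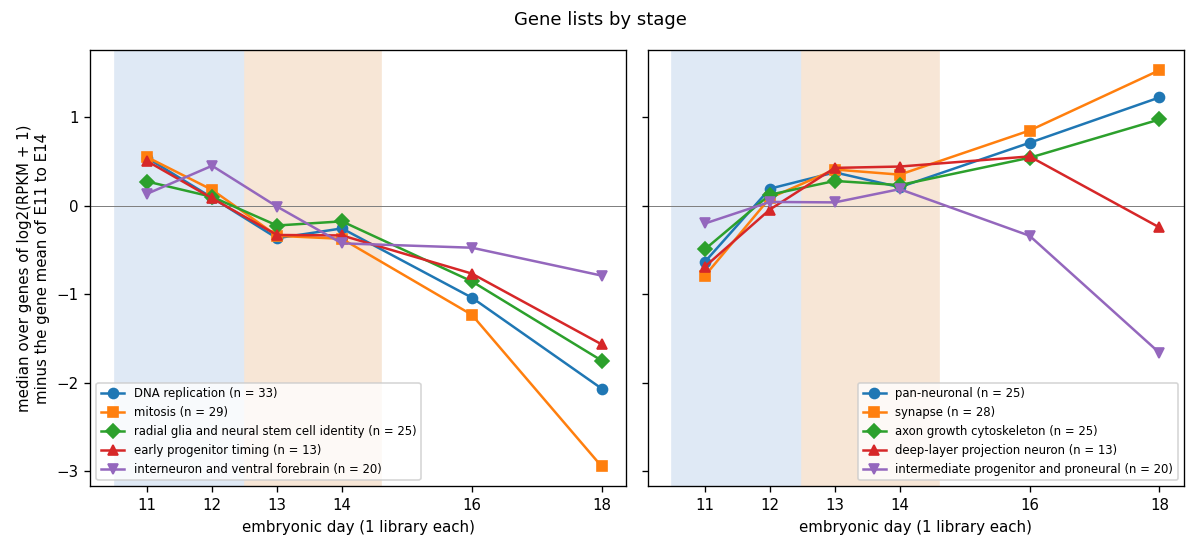
Median over the tested genes of each list of log2(RPKM + 1) at each embryonic day, relative to the gene's own mean over E11 to E14, with E11-E12 shaded blue and E13-E14 shaded orange. The mitosis list goes from 0.55 at E11 to -0.38 at E14 and the synapse list from -0.79 to 0.35, and the ventral forebrain list is highest at E12 with 0.45.

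Most genes of radial glia and neural stem cells were lower. Of 25 tested, 14 were lower and 2, Tnc and Fabp7, higher without overlap, against 27.4% and 23% of all genes. The median was -0.33, and -0.32 without E11. Hes5, the Notch effector that keeps progenitors undifferentiated, stood at 119, 69.5, 44.5 and 47.8 RPKM, a difference of -0.97 ± 0.28, or -0.58 without E11. Sox2, a core stem cell factor, stood at 139, 110, 75.8 and 74.6 RPKM, and the intermediate filament gene Nes at 81.3, 57.9, 39.7 and 53.6 RPKM. Other identity genes differed less. Pax6, the dorsal progenitor factor, stood at 14.2, 13.2, 10.6 and 11.9 RPKM, Lhx2 overlapped at 121, 90.7, 92.2 and 120 RPKM, and Fabp7, the lipid-binding protein of radial glia, stood at 331, 384, 434 and 420 RPKM. The largest difference of the list in either direction was that of Tnc, which encodes the matrix protein tenascin C. It stood at 0.319, 2.32, 5.63 and 4.20 RPKM, a difference of 1.49 ± 0.44, or 0.83 without E11.

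Genes reported to time early progenitors were lower in 9 of 13 tested and higher in 1 (Mycn), against 27.4% and 23% of all genes. Their median was -0.52, and -0.43 without E11. Beside Hmga2, the RNA-binding protein genes Igf2bp1, Igf2bp2 and Igf2bp3 had differences of -0.86, -0.81 and -0.67, and of -0.49, -0.71 and -0.56 without E11. Igf2bp1 stood at 20.9, 12.1, 8.79 and 7.88 RPKM. Lin28b, which blocks maturation of let-7 microRNAs, stood at 1.90, 1.58, 1.03 and 0.799 RPKM. The 7 listed genes below the limit included Lin28a, at 0.468, 0.133, 0.0235 and 0.0191 RPKM.

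The let-7 family is the microRNA group known to act on several of these transcripts, so its sequence is shown with the sites in Hmga2. RefSeq lists 9 mature mouse microRNAs with the seed GAGGUAG (bases 2 to 8, in capitals), of which 2 are printed, and the matching site CTACCTC was searched on the sense strand of 3′ untranslated regions (GENCODE M21). It occurred in 8 of 12 timing genes with such a region (66.7%) and in 1189 of 11419 genes tested (10.4%). The median length of the region was 2826 bases in the former and 1200 bases in the latter, and the longer a region, the more often any 7 letters occur in it. Hmga2, Igf2bp1 and Lin28b held 4 sites each, those of Hmga2 at chr10:120364224-120364246, chr10:120362987-120363009, chr10:120362549-120362571, chr10:120361691-120361713 (mm10, - strand).
mmu-let-7b-5p: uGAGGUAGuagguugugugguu
mmu-let-7c-5p: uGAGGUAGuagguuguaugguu
Hmga2 site 1: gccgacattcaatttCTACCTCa
Hmga2 site 2: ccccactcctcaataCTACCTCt
Hmga2 site 3: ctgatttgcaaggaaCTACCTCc
Hmga2 site 4: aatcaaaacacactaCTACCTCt

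Reads at the hairpin loci were few. Mirlet7b stood at 0.898, 1.13, 2.43 and 7.85 RPKM from 4, 4, 11 and 35 reads, and Mirlet7c-2 stood at 0, 1.01, 1.19 and 3.41 RPKM from 0, 4, 6 and 17 reads. Mirlet7d overlapped at 5.19, 2.34, 6.56 and 2.41 RPKM. These loci were singled out after their values had been seen, and a library of this kind does not measure the mature microRNA.

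Of 20 intermediate progenitor and proneural genes tested, 10 were higher without overlap (50%, against 23% of all genes) and 6 lower (30%, against 27.4%). The median was 0.13, and 0.15 without E11. Among the higher genes were those of the dorsal glutamatergic course. Eomes (Tbr2), the defining factor of intermediate progenitors, stood at 35.3, 55.6, 59.4 and 74.5 RPKM, and Neurog2, the dorsal proneural factor, at 74.5, 110, 119 and 123 RPKM. Neurod2 and Neurod6, factors of newborn projection neurons, stood at 16.7, 81.6, 148 and 198 RPKM and at 26.1, 175, 331 and 398 RPKM. Sstr2, a somatostatin receptor of migrating precursors, stood at 7.23, 30.4, 48.7 and 68.8 RPKM. In these 5 genes the 4 stages stood in order. On the lower side were the proneural factor Neurog1, at 13.8, 12.0, 8.41 and 9.87 RPKM, and the Notch ligand Dll1 at 29.9, 27.1, 19 and 20.5 RPKM.

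The Neurod2 promoter, at chr11:98329596-98329895 (- strand), is shown with the E-box CANATG that proneural proteins recognise, in capitals. The motif occurred in 8 of 17 promoters of this list (47.1%) and in 29.2% of all, so it was common everywhere.
Neurod2: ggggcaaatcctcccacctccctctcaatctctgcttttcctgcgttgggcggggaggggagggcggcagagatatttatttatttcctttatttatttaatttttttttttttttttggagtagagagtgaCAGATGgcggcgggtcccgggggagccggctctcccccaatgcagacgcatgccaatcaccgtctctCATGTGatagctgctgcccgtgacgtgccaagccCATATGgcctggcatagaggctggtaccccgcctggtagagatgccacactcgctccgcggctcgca

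Pan-neuronal genes were higher or overlapping, with most of the difference placed between E11 and E12. Of 25 tested, 13 were higher and 0 lower without overlap, against 23% and 27.4% of all genes, with a median of 0.49. The median step was 0.84 from E11 to E12, 0.18 to E13 and -0.17 to E14, and the median difference without E11 was 0.16. Tubb3, the neuronal tubulin, stood at 831, 1111, 1185 and 1203 RPKM. Dcx, the microtubule protein of migrating neurons, overlapped at 27.2, 53.8, 60.7 and 48.5 RPKM. Mapt (tau) stood at 11.8, 49.6, 69.0 and 59.0 RPKM, and Rbfox3, which encodes the NeuN antigen of maturing neurons, at 4.54, 13.7, 19.8 and 24.6 RPKM. No pan-neuronal gene was called by limma without E11. In the lists of neuronal RNA-binding protein and axon guidance genes the median changed sign without E11. It went from 0.32 to -0.03 for 23 genes of the former and from 0.09 to -0.09 for 28 of the latter. The former list was mixed: Rbfox3 and Rbfox1 stayed at 0.65 and 0.62 without E11, while Qk and Msi2 were at -0.54 and -0.46.

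Of 28 synaptic genes tested, 19 were higher and 0 lower, against 23% and 27.4% of all genes. The median was 0.79, and 0.31 without E11. Slc17a7, the vesicular glutamate transporter, stood at 3.07, 11.7, 18.3 and 19.4 RPKM. The AMPA receptor gene Gria1 stood at 1.90, 8.95, 14.8 and 14.5 RPKM, and Camk2b, a calcium-dependent kinase, at 0.849, 6.07, 10.9 and 10.9 RPKM (1.72 ± 0.60, or 0.75 without E11). The inhibitory vesicular transporter Slc32a1 was the lowest of the list with a difference of -0.33, overlapping at 10.2, 16.8, 11.9 and 8.82 RPKM. Rab3a and Vamp2, also of this list, were at 0.61 and 0.34 without E11, against 1.15 and 0.70 with all 4 libraries. Axon growth genes were higher in 16 of 25 and lower in 1, the actin-linked Marcks, against 23% and 27.4% of all genes. Their median was 0.45, and 0.15 without E11. Tubb2a stood at 299, 453, 673 and 894 RPKM and Gap43, a growth cone protein, at 93.3, 175, 230 and 208 RPKM.

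Deep-layer genes had a median of 0.89, and 0.58 without E11. Of 13 tested, 10 were higher and 1 lower, against 23% and 27.4% of all genes. The 10 included Nfia and Nfib, which are counted again with the nuclear factor I genes below. Fezf2, which specifies subcerebral projection neurons, stood at 24.8, 28.1, 54.5 and 68.8 RPKM, a difference of 1.18 ± 0.18, or 1.10 without E11. E11 and E12 were alike in this gene. Tbr1, the factor of corticothalamic neurons, stood at 32.5, 50.4, 55.9 and 58.0 RPKM, and Bcl11b (Ctip2) at 11.3, 30.5, 36.6 and 32.4 RPKM, so that both had most of their difference before E12. Sox5, which orders deep-layer fates, stood at 2.43, 5.45, 9.35 and 8.52 RPKM. Tle4 was the lower member, at 9.57, 9.94, 7.74 and 6.15 RPKM.

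Upper-layer genes had a smaller difference than deep-layer genes by their medians, which were not tested against each other. Of 10 tested, 5 were higher and 2 lower, against 23% and 27.4% of all genes. The median was 0.36, and 0.24 without E11. Cux2 stood at 4.32, 6.82, 9.05 and 9.24 RPKM, whereas Cux1 was lower at 10.4, 10.4, 8.23 and 8.47 RPKM.

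The nuclear factor I genes and a set of early glial and matrix genes were listed after their values had been seen, so their counts describe the choice. All 4 nuclear factor I genes were higher, with a median of 1.43, and 10 of 12 glial and matrix genes were higher and 1 lower, also with a median of 1.43. Nfia stood at 6.22, 14.7, 22.5 and 24.6 RPKM, Nfib at 7.32, 21.5, 42.5 and 42.2 RPKM, and Nfic at 1.96, 3.66, 6.06 and 7.44 RPKM. These factors are known for the later competence of radial glia. Aldoc, an aldolase of glia, stood at 4.12, 30.5, 59.3 and 71.2 RPKM, Ndrg2 at 4.37, 22.0, 40.4 and 49.0 RPKM, and Aldh1l1, a folate enzyme used as an astrocyte marker, at 0.224, 1.56, 3.41 and 3.71 RPKM. By contrast the glutamate transporter Slc1a3 overlapped at 5.44, 8.84, 6.92 and 7.15 RPKM. The secreted protease gene Htra1 differed across the boundary alone, with 0.153 and 0.126 RPKM before and 3.39 and 3.0 after. Its difference was 1.90 without E11.

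Ventral forebrain genes were lower in E13-E14, with a course unlike that of the proliferation genes. Of 20 tested, 12 were lower and 3 higher without overlap, against 27.4% and 23% of all genes. The median was -0.52, and -0.74 without E11. The median step was 0.30 from E11 to E12, -0.48 to E13 and -0.44 to E14. Nkx2-1, which specifies the medial ganglionic eminence, stood at 29.5, 22.1, 9.44 and 2.84 RPKM, a difference of -2.07 ± 0.47, or -1.87 without E11. Gsx2, of the lateral ganglionic eminence, stood at 21.9, 12.8, 5.73 and 3.81 RPKM. Dlx2, the factor of GABAergic precursors, stood at 58.5, 58.3, 31.0 and 24.7 RPKM, and Lhx8 at 9.94, 11.4, 7.74 and 2.44 RPKM. Gad2, a GABA synthesis enzyme, stood at 18.4, 24.1, 15.5 and 9.28 RPKM. The marker of migrating interneurons Lhx6 overlapped at 12.0, 18.1, 18.2 and 12.9 RPKM, and the neuropeptides Sst and Npy were higher, Sst at 29.0, 116, 137 and 154 RPKM.

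**Figure D3:**
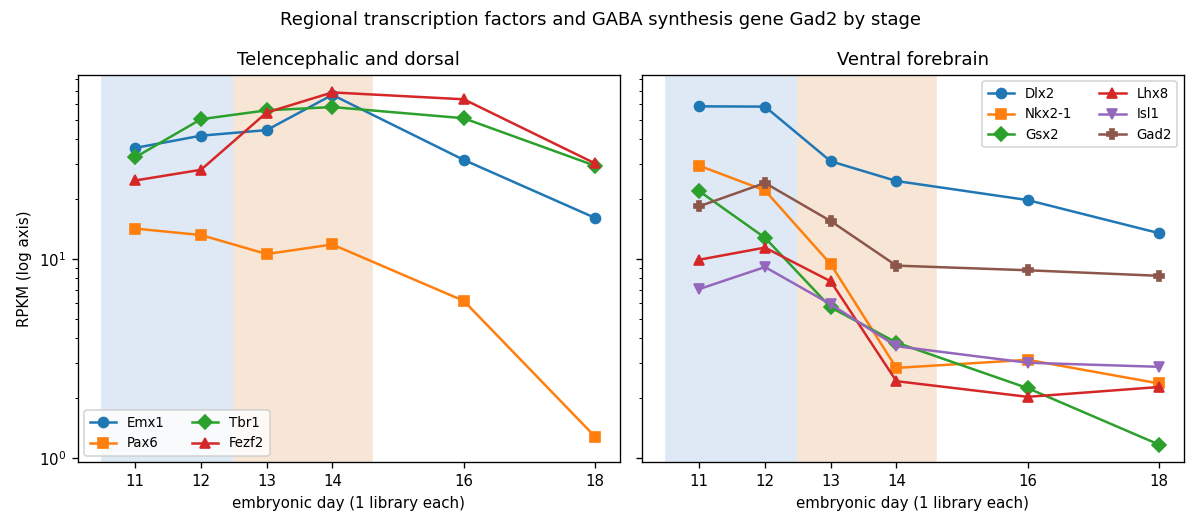
RPKM (log axis) by embryonic day, with 1 library per day, of telencephalic and dorsal genes (left) and ventral forebrain genes (right). Between E11 and E14 Emx1 goes from 36.2 to 66.8 RPKM and Pax6 from 14.2 to 11.9 RPKM, while Nkx2-1 goes from 29.5 to 2.84 RPKM.

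A dorsal marker, Emx1, given above, was higher in E13-E14, with its largest step, 0.58, from E13 to E14. This was opposite in direction to most ventral genes, but several other dorsal factors did not share it. Pax6, Dmrta1 and Lhx9 were lower, and Emx2, Dmrta2 and Lhx2 overlapped. Of 23 telencephalic and dorsal forebrain factors, 15 were lower and 3 higher, among them Emx1 and Bcl11b, against 27.4% and 23% of all genes. The median was -0.27, and -0.21 without E11. Those lowest in E13-E14 were Otx2, of the midline and choroid plexus, at 6.60, 3.91, 0.956 and 0.628 RPKM, and the diencephalic factor Barhl2 at 10.2, 8.82, 3.93 and 3.63 RPKM. Vax1, of the optic stalk and septum, stood at 10.7, 10.1, 4.52 and 3.48 RPKM. The share of dorsal, ventral and midline tissue in each library was not measured by anything else, so a difference in dissection and one in expression cannot be told apart.

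In the FGF and Hedgehog list 13 of 25 were lower and 2 higher, against 27.4% and 23% of all genes. The median was -0.15, and -0.27 without E11. Fgf15, a secreted growth factor of young forebrain progenitors, stood at 13.5, 13.0, 4.11 and 3.88 RPKM, a difference of -1.51 ± 0.14 with an adjusted p of 0.161 in limma. Its 2 early and its 2 late values were nearly equal, and among genes averaging at least 5 RPKM, clone, predicted, pseudogene and small RNA names left out, it had the largest excess of the middle step over the other steps. The middle step was larger than the sum of the other steps in 1109 of 7527 such genes, 370 of them higher and 739 lower. Shh, the ventral ligand, stood at 1.47, 1.84, 0.732 and 0.261 RPKM and its receptor and target Ptch1 at 3.27, 3.17, 1.66 and 1.05 RPKM. The opposite member was Fgf18, at 0.193, 0.913, 2.67 and 2.81 RPKM. The Notch list was lower in 10 of 22 (45.5%, against 27.4% of all genes) and higher in 5 (22.7%, against 23%), with the ligand Jag1 at 3.95, 3.57, 1.93 and 1.74 RPKM and the modifier Numbl at 9.16, 12.0, 14.3 and 14.8 RPKM.

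Among red cell transcripts, embryonic globins were lower and adult globins did not go one way. The embryonic globin Hbb-y stood at 3958, 805, 273 and 249 RPKM and Hba-x at 834, 48.3, 13.2 and 20.3 RPKM, while the adult Hbb-b1 stood at 221, 170, 319 and 293 RPKM. The most abundant adult globin, Hba-a1, stood at 1760, 527, 497 and 553 RPKM, high at E11 alone, and Hba-a2 was lower at 111, 37.1, 25.3 and 19.8 RPKM. Adult globins summed to 2163 RPKM at E11 and 793 to 952 RPKM at E12 to E14. The share of embryonic globins in all globin RPKM was 70.1% at E11, 52.1% at E12, 23.7% at E13 and 22.2% at E14. It was 0.824% at E16. Near-identical globin copies share reads, so the split between the adult members is uncertain. The sum of all globins was 7228 RPKM at E11 and 1215 to 1654 RPKM in the other 3 libraries.

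**Figure D4:**
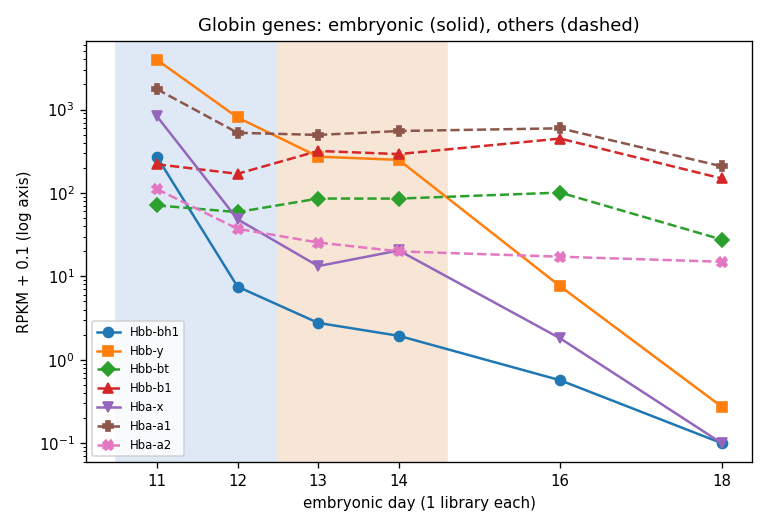
RPKM + 0.1 (log axis) of the globin genes that reached 1 RPKM, by embryonic day, with embryonic globins as solid and the others as dashed lines. Hbb-y and Hbb-bh1 are lower at each later stage through E18, Hba-x is so except for 13.2 RPKM at E13 and 20.3 at E14, and Hbb-b1 lies between 149 and 449 RPKM throughout.

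Markers of other cell types were highest in the E11 library for mesenchyme and choroid plexus. In the pericyte, meninges and mesenchyme list, 10 of 20 genes were tested. Of these, 2 were higher and 2 lower, against 23% and 27.4% of all genes. The summed level of the list was 39.9 RPKM at E11 and 16.4, 17.2 and 19 RPKM at E12 to E14. No member was at 0 in all 4 libraries. The median difference was -0.54, and 0.05 without E11. Lum, a matrix proteoglycan, stood at 6.57, 0.138, 0.0153 and 0.530 RPKM. Of 12 choroid plexus genes 3 were tested, and their list summed to 71.8, 7.09, 2.66 and 3.29 RPKM, of which Ttr made 57.6 RPKM at E11. Endothelial genes summed to 98.0 to 111 RPKM and microglial genes to 37.8 to 44.8 RPKM in the 4 libraries. The part of these cells in the other differences was not tested.

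The study named ether lipid synthesis in peroxisomes, and those genes differed little here. Of 13 ether lipid genes, 4 were lower (30.8%, against 27.4% of all genes) and 2 higher (15.4%, against 23%) without overlap, with a median of -0.06. These shares were near those of all genes. Gnpat, the first enzyme of the pathway, stood at 36.4, 31.7, 30.7 and 29.3 RPKM, and Agps, which forms the ether bond, at 6.66, 6.12, 4.57 and 4.20 RPKM (-0.46 ± 0.14). Far1, which supplies fatty alcohols, overlapped at 8.20, 8.53, 8.36 and 6.26 RPKM. Pex7, the import receptor that carries Agps, overlapped at 1.37, 1.33, 1.21 and 1.43 RPKM with a difference of -0.02 ± 0.17. Of 16 peroxins, 8 were higher (50%, against 23% of all genes) and 3 lower (18.8%, against 27.4%), with differences of -0.36 to 0.26. Peroxisomal enzymes and transporters were higher in 6 and lower in 6 of 29 (20.7% each), nearer the shares of all genes.

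For nuclear subunits of the respiratory chain the sign of the median depended on E11. The median difference of 36 complex I genes was -0.10, and 0.13 without E11; that of 38 genes of complexes II to V was -0.13, and 0.09. Of the 13 mitochondrially encoded mRNAs, 9 were higher and 0 lower, against 23% and 27.4% of all genes. Their median was 0.39, and 0.35 without E11. ND4 stood at 1255, 1174, 1593 and 1696 RPKM. Cytosolic ribosomal protein genes showed the same dependence, with a median step of -0.60 from E11 to E12 and a median difference of -0.14, and 0.14 without E11. Glycolysis genes were lower in 9 of 25 (36%) and higher in 7 (28%), near the shares of all genes. Pgk1 stood at 188, 153, 128 and 120 RPKM, whereas the neuronal enolase Eno2 stood at 3.75, 7.27, 10.2 and 11.0 RPKM.

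**Figure D5:**
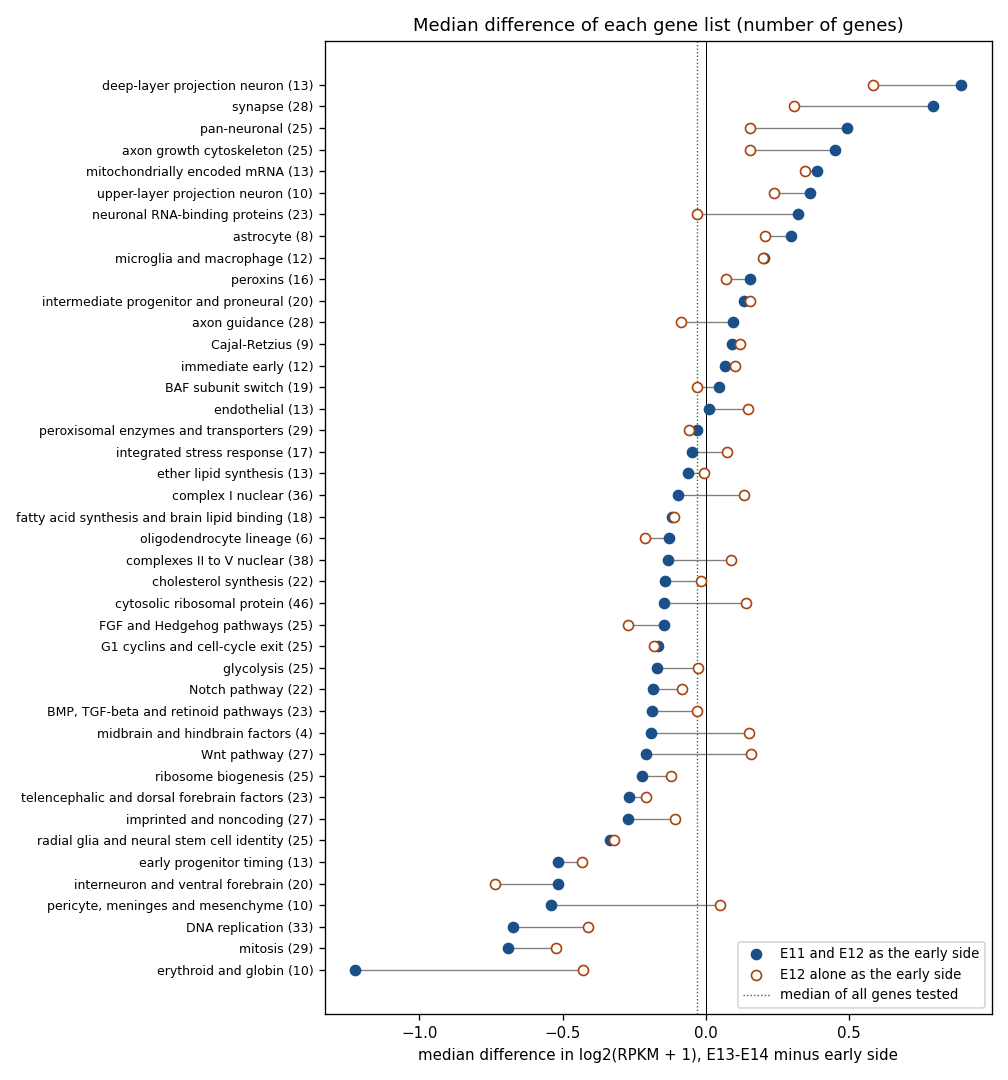
Median difference in log2(RPKM + 1) between E13-E14 and the early side for each gene list with at least 4 genes tested (number in brackets; lists added after the values were seen are left out; the dotted line marks all genes tested), with E11 and E12 (filled) or E12 alone (open) as the early side. Deep-layer genes lie highest at 0.89 and 0.58, and the open points of complex I, complexes II to V and the cytosolic ribosomal proteins lie on the other side of 0 from the filled ones.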

How the data were processed

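RNA sequencing of total RNA from wild-type mouse brain was analysed at E11, E12, E13 and E14, with 1 library each, and E16 and E18 were given beside them. The submitters' processing notes name STAR 2.7.9a, HTSeq 0.6.0 and the build mm10, and the labels give Trizol extraction. The deposited table held RPKM. No header named the unit, which follows from the values: multiplied by the merged exon length in GENCODE M21 and a read total per library they gave whole reads, within 0.01 reads, for 97.7% of nonzero values. The test planned for raw counts therefore gave way to the one for normalised values. limma 3.58.1 (R 4.3.3), its prior variance following expression level, was fitted to log2(RPKM + 1) of genes averaging 1 RPKM or more, with Benjamini-Hochberg adjustment and a threshold of 0.05. The pseudocount of 1 understates differences of low genes. The fit was also run on simulated reads drawn as replicates, with no difference between stages of a side, unlike the real libraries. p-values measure the spread between neighbouring stages, which may be technical, not that between replicates. limma-voom on the recovered reads and the other 14 alternatives are given in the closing section.

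A difference is the mean log2(RPKM + 1) of E13 and E14 minus that of E11 and E12. Where a symbol occurred more than once, as in 152 cases, the gene with the highest mean was kept. Named were the 12 largest differences in each direction among genes without overlap and with a mean of at least 5 RPKM, leaving out clone, predicted and pseudogene names, since no gene passed the test. Further named were up to 4 genes with the smallest p per list, the globin and Hox genes, Pex7, Gnpat, Agps and Far1. Other genes given with values, such as Tbr1, Emx1, Htra1 and the let-7 hairpins, were singled out after their values had been seen, as were the nuclear factor I and glial lists. The members and all 45 lists were chosen with earlier results of these data known. Tables of the knockdown and overexpression libraries were not used. Some genes that this rule named are not reported here. Promoters and microRNAs are from RefSeq GRCm38.p6.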

Additional observations from a re-analysis of the deposited data

How the results depend on the processing

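Counts of called genes were 0 in both directions under every alternative that kept all 4 libraries: a pseudocount of 0.1 or 5, no filter or a mean of at least 5 RPKM, 3 scalings, a slope on embryonic day, a fit on 6 stages, limma-voom, and removal of an exon length and GC trend. The last was chosen after seeing the data, and it turned the sign of 4 list medians, those of BAF subunits, endothelium, epithelium and muscle, and peroxisomal enzymes. Leaving out 1 library gave 1 to 2110 genes higher and 0 to 1931 lower, with the highest counts without E12. The medians of 29 of 44 lists kept their sign under every alternative, and 15 did not, none of them beyond 0.54 in size with all libraries. Among the named genes 7 of 178 changed sign. For the slope on embryonic day Nr4a2 was at -0.054 and Pex7 at 0.0037. With the trend removed Pex7 was at 0.012. Leaving out each library in turn gave -0.21 to 0.29 for Nr4a2 and -0.086 to 0.049 for Pex7. It gave -1.27 to 0.43 for Lmx1a, -2.17 to 0.091 for Clic6, -0.41 to 0.0036 for Ndufb5 and -0.53 to 0.051 for Ndufs8, each highest without E11. For Rps2 it gave -0.048, without E14, to 2.65, without E13. The cause was not tested. Depth limits the microRNA hairpins, with 0 to 36 reads a library, and low levels such as early Htra1, with 23 and 15 reads. No paired analysis was possible because each stage had 1 library and the replicate numbers follow accession order alone.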

Other observations

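Several features with near-identical copies differed between single libraries, and reads shared between copies make each value uncertain. They were chosen after their values had been seen. Rps26-ps1, a pseudogene copy of a ribosomal protein gene, stood at 8.38, 6.23, 776 and 322 RPKM from E11 to E14 and at 8.02 RPKM at E16, while Rps26 stood at 481, 308, 107 and 279 RPKM. Rpsa-ps10 stood at 74.2, 40.2, 664 and 749 RPKM, and Rpsa at 814, 473, 307 and 346 RPKM. Rps2 stood at 45.2, 32.8, 37.2 and 247 RPKM, and its copy Rps2-ps6 at 1.56, 0.93, 0.703 and 36.1 RPKM. The splicing factor Cwc22 stood at 59.1 RPKM at E16 and 3.32 at E18.

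Xist, the RNA of X inactivation, stood at 8.30, 20.9, 21.2 and 1.60 RPKM, and the Y-linked Eif2s3y at 12.0, 9.59, 8.77 and 14.1 RPKM. Both were thus present in all 4 libraries, while the labels give neither sex nor number of embryos. Prph, an intermediate filament of peripheral neurons, stood at 0.0287, 0.265, 1.25 and 17.8 RPKM, high in the E14 library alone. Rspo1, a secreted activator of Wnt signalling, stood at 27.7, 1.47, 3.40 and 3.25 RPKM, high in the E11 library alone. Mc4r, a melanocortin receptor, stood at 0.422 and 0.430 RPKM before and 5.58 and 5.27 RPKM after the boundary, and Lyl1, a basic helix-loop-helix factor, at 2.67, 2.75, 9.65 and 14.5 RPKM.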
